A study of Homo sapiens with 3 samples.

Results

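The aminoacyl-tRNA synthetases were followed across 3 RNA-seq libraries of HEK293T cells, a transformed line from human embryonic kidney. The 36 genes were taken by symbol from the deposited gene table, which lists 23284 genes. They form a cytosolic set of 20 genes whose symbols carry no digit and a mitochondrial set of 16 genes whose symbols end in 2. They were chosen by symbol rather than by a measured value, but with earlier results of these data known. Cells of the first group received a negative control siRNA, those of the next an siRNA against ESRP2, and those of the last an siRNA against Arkadia, whose gene is RNF111. All 3 groups were grown with 10% serum, were transfected as they were seeded, received no TGF-beta and were harvested after 48 h. Each group had 1 library of polyadenylated RNA, so there were no replicates, no test was possible, and every difference given here is a difference between 2 libraries. In such bulk RNA, fewer cells of a kind and less RNA per cell cannot be told apart.

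Each synthetase joins 1 amino acid to the tRNAs that carry it, and these charged tRNAs feed the ribosome. Human cells keep a cytosolic and a mitochondrial protein synthesis machinery, and most amino acids have a separate nuclear gene for each. GARS and KARS encode both forms from a single gene, EPRS joins the glutamate and the proline enzyme in 1 protein, and FARSA and FARSB encode the alpha and beta subunits of the cytosolic phenylalanine enzyme. Mitochondria make glutaminyl-tRNA by amidation of glutamyl-tRNA, so QARS has no mitochondrial counterpart. Several cytosolic synthetases are known targets of ATF4, a transcription factor of the amino acid response, and several others sit together in the multi-synthetase complex. Of the proteins targeted, Arkadia attaches ubiquitin to repressors of TGF-beta signalling and ESRP2 steers splicing in epithelial cells.

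Levels are FPKM, that is, fragments scaled to transcript length and library size, so that genes can be set side by side. The smallest steps between low FPKM values implied about 12.0, 12.5 and 9.06 M reads for the control, ESRP2 and Arkadia siRNA libraries, and about 182 to 16340 reads per synthetase and library. RNF111 was at 6.38, 7.65 and 1.15 FPKM in that order, and its interval with Arkadia siRNA lay apart from both others. ESRP2 was at 14.8, 4.27 and 21.2 FPKM, with overlapping intervals. Of the 9 marker genes fixed for HEK293T, 8 passed the level filter, among them VIM, KRT18 and NEFL, and only LHX1 did not. The same filter was passed by 1 of 15 genes that mark other cell types.

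The promoters of the synthetases were searched for TGATGNAA on both strands, the core of the amino acid response element that ATF4 and C/EBP proteins bind. RefSeq promoters on GRCh38.p14, from 250 bases before to 50 bases after the start, matched 30 of the 36 genes. DARS, LARS, VARS, YARS, AARS2 and VARS2 were not matched. The letters occurred in a promoter of 7 of 16 cytosolic genes and of 1 of 14 mitochondrial genes, YARS2. CARS, GARS and TARS had 2 promoters each and 1 match each. In that reference, 4.457% of all 27305 genes held them. A match is a description of these letters only. The 30 bases around each match are shown because the values of the 7 cytosolic synthetases with one are set below beside those of ATF4. The bases are given on the gene's own strand, with the match in capitals (TTNCATCA is TGATGNAA on the other strand).

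AARS: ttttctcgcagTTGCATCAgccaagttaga
CARS: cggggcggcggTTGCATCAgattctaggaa
GARS: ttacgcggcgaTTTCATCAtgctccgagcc
IARS: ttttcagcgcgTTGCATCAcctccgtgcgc
MARS: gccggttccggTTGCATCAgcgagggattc
NARS: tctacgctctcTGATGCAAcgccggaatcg
TARS: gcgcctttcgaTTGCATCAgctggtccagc
YARS2: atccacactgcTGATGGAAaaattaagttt

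On GRCh38.p14 these windows lie at chr16:70289675-70289704 on the minus strand for AARS, chr11:3057407-3057436 (minus) for CARS, chr7:30594834-30594863 (plus) for GARS and chr9:92293692-92293721 (minus) for IARS. They lie at chr12:57488053-57488082 (plus) for MARS, chr18:57621804-57621833 (minus) for NARS, chr5:33440956-33440985 (plus) for TARS and chr12:32756076-32756105 (minus) for YARS2. Apart from GARS, all of the cytosolic matches shared the letters TTGCATCA or its reverse complement. In CARS, MARS, NARS and TARS the match reached or followed the annotated start; in AARS, GARS and IARS it lay before it.

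All 36 synthetases were expressed in each library, and the cytosolic set stood above the mitochondrial set. With control siRNA the cytosolic genes had a median of 91.5 FPKM, from 39.2 for CARS, the cysteine enzyme, to 163 for IARS, the isoleucine enzyme. The mitochondrial genes had a median of 17.6 FPKM, from 7.01 for PARS2, the proline enzyme, to 109 for IARS2. With ESRP2 siRNA the medians were 99.4 and 19.0 FPKM, and with Arkadia siRNA 97.9 and 21.0 FPKM. The order of the sets was thus the same in each library, although IARS2 reached the range of the cytosolic genes.

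IARS (chr9:94972625-95056038 on hg19) led the cytosolic order with control siRNA, followed by SARS at 151, QARS at 150 and KARS at 138 FPKM. The low end was formed by NARS at 54.6, DARS at 49.1, VARS at 46.7 and CARS at 39.2 FPKM. In the mitochondrial order IARS2 was followed by LARS2 at 48.2, TARS2 at 40.1 and RARS2 at 26.0 FPKM. CARS2 at 14, MARS2 at 11.6, FARS2 at 9.76 and PARS2 at 7.01 FPKM closed it. The authors' intervals were wide, with a median of 49.9% of the FPKM to each side with control siRNA, 49.5% with ESRP2 siRNA and 49.4% with Arkadia siRNA. Every pair of neighbours in either order had overlapping intervals, so only distant ranks were told apart, such as IARS (88.7 to 238) and CARS (18.7 to 59.8).

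**Figure D1:**
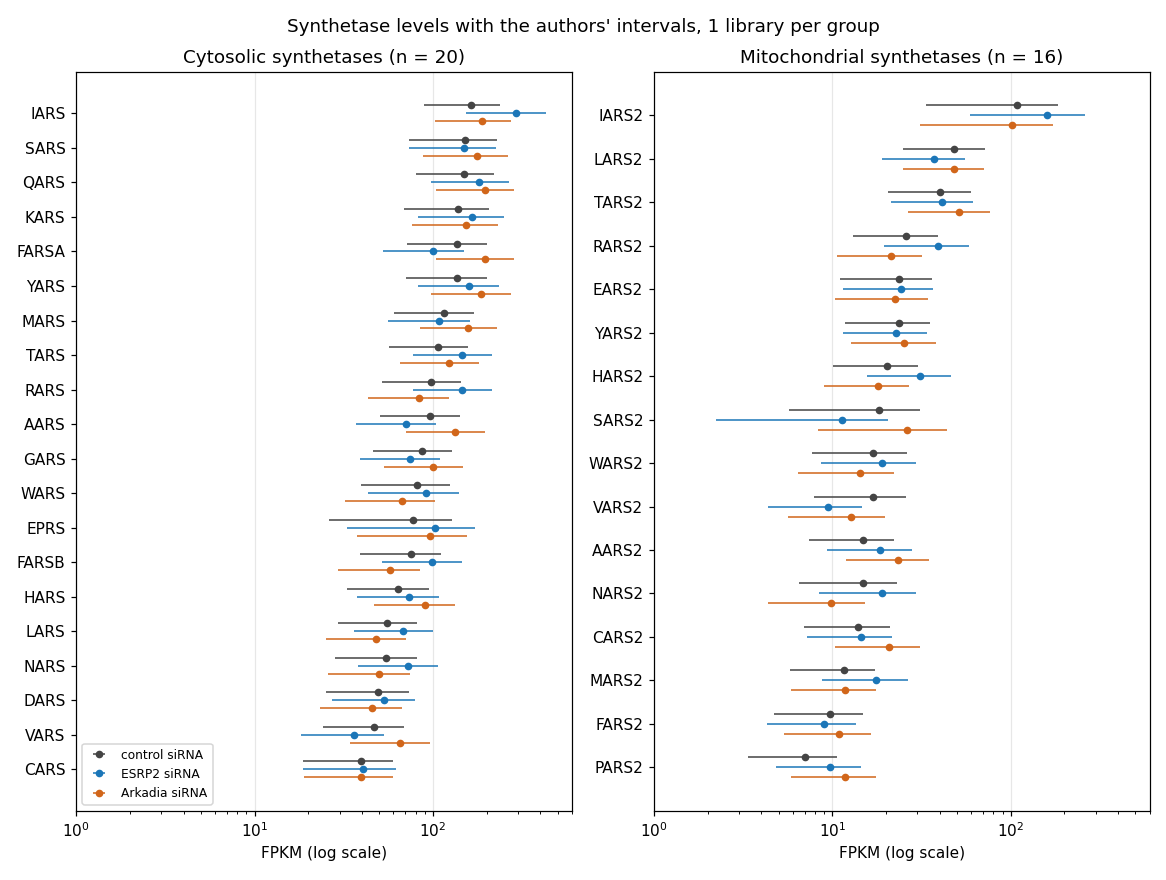
FPKM on a log scale for the 20 cytosolic (left) and 16 mitochondrial (right) synthetases, ordered by the control library; points are the 3 libraries and bars the authors' intervals. Cytosolic genes lie mostly above 39.2 FPKM and mitochondrial genes mostly below 50, with IARS2 as the high exception, and the bars of each gene overlap across libraries.

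Some synthetases were quantified in a locus that also holds other genes. EPRS and IARS2 were quantified within the same locus (chr1:220046619-220321383 on hg19), MARS with the stress gene DDIT3, YARS with S100PBP, and SARS2 with the mitochondrial ribosomal protein gene MRPS12. The locus of IARS also held the small RNA genes MIR3651 and SNORA84. Whether these genes share reads, and how the authors' estimation divided them, was not tested. The interval of SARS2 with ESRP2 siRNA was the widest of all, at 80.3% of its FPKM.

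With ESRP2 siRNA, few synthetases differed from control siRNA by 1.5-fold, the size used here on the log2 scale of FPKM + 1. IARS was higher, at 163 FPKM with control siRNA, 291 with ESRP2 siRNA and 188 with Arkadia siRNA. Its log2 ratio was 0.83, and the intervals of 88.7 to 238 and 154 to 428 overlapped. It was the only cytosolic gene of 20 past the size, and none was lower. Across all 11975 genes compared, those with a mean of at least 1 FPKM, 20.0% were higher and 11.6% lower. Among the 6639 genes expressed at least as highly as the lowest synthetase these shares were 22.6% and 11.9%. The cytosolic median of 0.20 stood beside a median of 0.12 over all genes. Above 0 were 14 of 20 cytosolic genes, beside 57.7% of all genes. With another scaling of the libraries the cytosolic median was 0.08 or 0.03 and that of all genes 0.01 or -0.03. Another scaling shifts every ratio of a comparison by nearly the same amount.

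Among the mitochondrial synthetases, 1 of 16 was higher and 2 were lower with ESRP2 siRNA. HARS2, the histidine enzyme, was at 20.3 FPKM with control siRNA, 31.0 with ESRP2 siRNA and 18.0 with Arkadia siRNA, a log2 ratio of 0.59 for ESRP2 siRNA. SARS2, the serine enzyme, was at 18.4, 11.3 and 26.1 FPKM (log2 ratio -0.65). VARS2, the valine enzyme, was at 16.9, 9.49 and 12.7 FPKM (log2 ratio -0.77). For SARS2 the Arkadia siRNA library was the highest, and for VARS2 the control library was. Just under the size stood RARS, MARS2, RARS2 and IARS2, with log2 ratios of 0.57, 0.57, 0.56 and 0.56. The mitochondrial median was 0.10, which turned to -0.02 and -0.06 with the 2 other scalings, so it had no stable sign.

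None of the 36 genes had intervals that lay apart between ESRP2 and control siRNA, where 1.27% of all genes did. Among them were the other genes of the largest differences in the cytosolic set: RARS (97.9 to 146 FPKM), TARS (107 to 146), FARSA (136 to 101) and AARS (95.7 to 70.6), whose log2 ratios were 0.57, 0.44, -0.44 and -0.43. RARS and TARS attach arginine and threonine, AARS attaches alanine.

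Arkadia siRNA moved still fewer synthetases past the size. No cytosolic gene of 20 was higher or lower than with control siRNA, beside 10.0% higher and 11.9% lower among all genes. The largest cytosolic differences were those of FARSA (136 to 195 FPKM, log2 ratio 0.51), HARS (63.9 to 89.8, 0.48), VARS (46.7 to 65.4, 0.48) and AARS (95.7 to 133, 0.47). YARS, the tyrosine enzyme, went from 136 to 186 FPKM with a log2 ratio of 0.45. The cytosolic median was 0.20, while the median over all genes was -0.02. Above 0 were 14 of 20 cytosolic genes, beside 48.6% of all genes.

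In the mitochondrial set 2 of 16 genes were higher with Arkadia siRNA and none lower. PARS2 was at 7.01 FPKM with control siRNA, 9.72 with ESRP2 siRNA and 11.7 with Arkadia siRNA, and AARS2, the alanine enzyme, at 14.8, 18.6 and 23.5 FPKM. Their log2 ratios for Arkadia siRNA were 0.67 and 0.63. Both were lowest with control siRNA. Near the size but within it stood NARS2, the asparagine enzyme, at -0.55, CARS2 at 0.53 and SARS2 at 0.49. The mitochondrial median was 0.01. No synthetase had intervals apart between Arkadia and control siRNA, beside 0.443% of all genes.

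**Figure D2:**
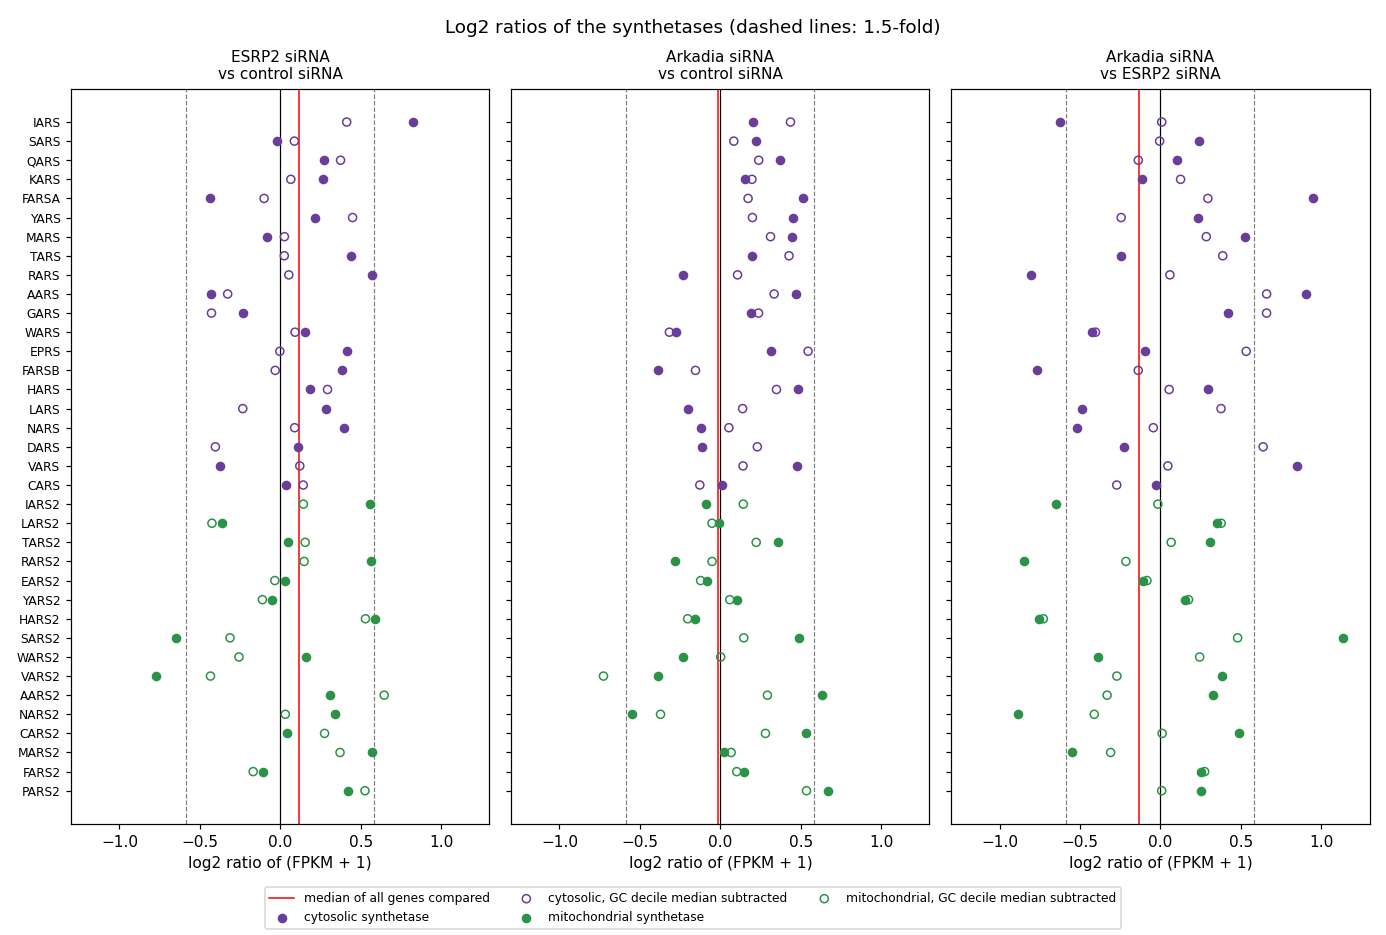
Log2 ratio of FPKM + 1 for each synthetase in the 3 comparisons; filled points are the ratios, open points the ratios after the median of genes of like GC content was subtracted, dashed lines mark 1.5-fold and the red line the median of all genes. IARS stands out at 0.83 on the left, no cytosolic gene passes a dashed line in the middle, and 11 filled points pass one on the right.

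Set against each other, the 2 knockdown libraries differed more, for the synthetases as for all genes. With Arkadia siRNA, FARSA, AARS and VARS of the 20 cytosolic genes were higher than with ESRP2 siRNA, with log2 ratios of 0.95, 0.90 and 0.85. RARS, FARSB and IARS were lower, with -0.80, -0.77 and -0.62. In the mitochondrial set SARS2 alone was higher, at 1.14, and NARS2, RARS2, HARS2 and IARS2 were lower, at -0.89, -0.85, -0.75 and -0.65. Among all genes 21.4% were higher and 30.8% lower. No synthetase had intervals apart, beside 6.31% of all genes. The cytosolic median was -0.06 and turned to 0.09 with either other scaling, and the mitochondrial median was 0.20, which became 0.35 with either other scaling and -0.0037 with the medians of genes of like GC content subtracted.

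The genes that were lower with Arkadia than with ESRP2 siRNA had their highest level with ESRP2 siRNA. In the order of control, ESRP2 and Arkadia siRNA, RARS was at 97.9, 146 and 83.0 FPKM. RARS2 was at 26.0, 38.9 and 21.2 FPKM, IARS2 at 109, 161 and 102, and NARS2 at 14.8, 19.0 and 9.80. MARS2, the mitochondrial methionine enzyme, was also highest with ESRP2 siRNA, at 11.6, 17.7 and 11.8 FPKM, with a log2 ratio of -0.55 between the knockdowns. The genes that were higher had the reverse order: AARS was at 95.7, 70.6 and 133 FPKM and VARS at 46.7, 35.9 and 65.4. For the genes past the size in this comparison, the control library lay between the knockdown libraries, except for IARS, which was lowest with control siRNA.

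The subunits of the cytosolic phenylalanine enzyme stood on opposite sides. FARSA (chr19:13033284-13044558 on hg19) was at 136 FPKM with control siRNA, 101 with ESRP2 siRNA and 195 with Arkadia siRNA. FARSB (chr2:223436162-223520827) was at 75.1, 98.2 and 57.2 FPKM. FARSA was thus lowest where FARSB was highest, and the reverse. The protein is built of equal numbers of alpha and beta subunits, as textbook knowledge has it. The FPKM values of the transcripts were nearly level only with ESRP2 siRNA. With control siRNA, however, the intervals overlapped too (71.4 to 201 for FARSA and 38.9 to 111 for FARSB). They lay apart only with Arkadia siRNA (104 to 286 and 29.4 to 85.0). The GC content of the transcripts was 61.4% for FARSA and 41.6% for FARSB. After the median of genes of like GC content was subtracted, the log2 ratio between the knockdowns was 0.30 for FARSA and -0.14 for FARSB, both within the size.

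GC content moved with the ratios across all genes. Over 10 groups of genes of rising GC, whose medians ran from 37.4% to 64.4%, the median log2 ratio went from 0.60 to -0.49 for ESRP2 against control siRNA. It went from -0.46 to 0.34 for Arkadia against control siRNA, and from -1.06 to 0.80 between the knockdowns. The synthetases lay along the same slope. Spearman's rho between GC content and log2 ratio was -0.60, 0.69 and 0.81 over the 36 genes, and -0.63, 0.56 and 0.75 over all genes with a GC value, where all points come from the same libraries. Of the 17 ratios past the size, 2 were past it also with GC medians subtracted, both between the knockdowns: AARS at 0.66 and HARS2 at -0.73. IARS against control siRNA came to 0.41, HARS2 to 0.53, SARS2 to -0.31 and VARS2 to -0.43. With Arkadia against control siRNA PARS2 came to 0.54 and AARS2 to 0.29.

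Other genes passed the size only on that scale. They were AARS2 for ESRP2 against control siRNA (0.65), VARS2 for Arkadia against control siRNA (-0.73) and, between the knockdowns, GARS (0.66) and DARS (0.64). GARS, which supplies glycyl-tRNA to both compartments, was at 87.3, 74.2 and 99.9 FPKM with control, ESRP2 and Arkadia siRNA. DARS, the aspartate enzyme, was at 49.1, 53.1 and 45.3 FPKM. Both had overlapping intervals throughout, and none of their ratios was past the size before GC medians were subtracted.

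**Figure D3:**
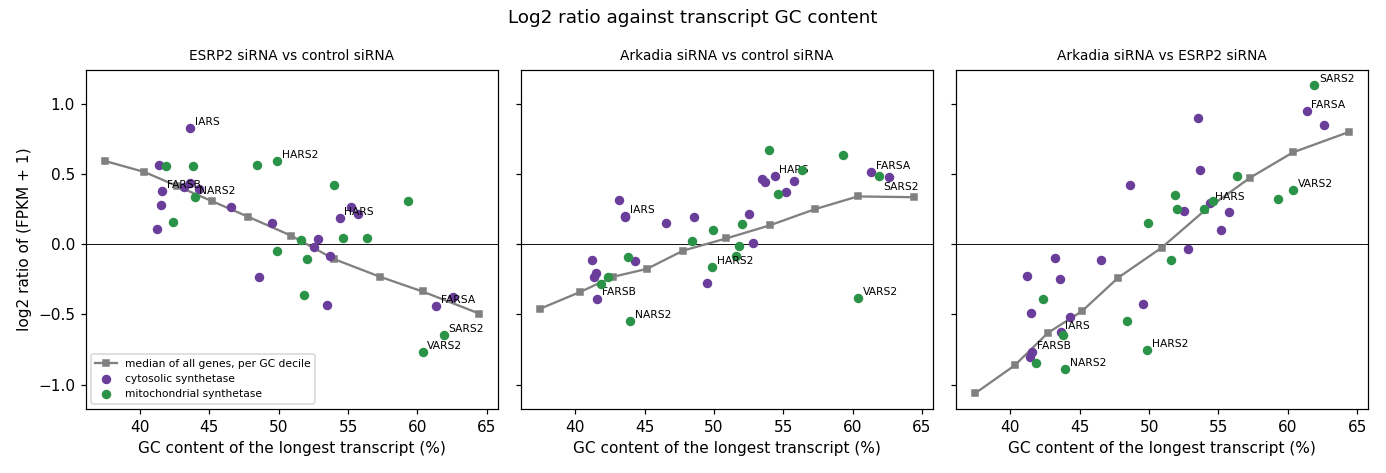
Log2 ratio of FPKM + 1 against the GC content of each gene's longest transcript (%), for the 3 comparisons; points are synthetases by set and the grey line joins the medians of all genes in 10 groups by GC. The synthetases follow the grey line, which runs from 0.60 to -0.49 on the left and from -1.06 to 0.80 on the right, and HARS2 lies below it on the right.

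HARS and HARS2 are neighbours that point away from each other on chromosome 5, at 140053490 to 140070971 and 140071018 to 140078890 on hg19. HARS was at 63.9, 73.0 and 89.8 FPKM with control, ESRP2 and Arkadia siRNA, where HARS2 was at 20.3, 31.0 and 18.0 FPKM. HARS was highest with Arkadia siRNA and HARS2 with ESRP2 siRNA, but for both genes the intervals overlapped between all libraries. Their transcripts had a GC content of 54.4% and 49.9%. The deposited table and RefSeq place the starts differently, and between the RefSeq starts lies a stretch of 84 bases, at chr5:140691371-140691454 on GRCh38.p14, upstream of both genes. It is shown on the plus strand, in the direction of HARS2, with each CG pair in capitals.

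HARS/HARS2: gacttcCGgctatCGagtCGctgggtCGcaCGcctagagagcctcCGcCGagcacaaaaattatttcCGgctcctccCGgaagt

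It holds 9 CG pairs and 59.5% G and C. Neither gene's promoter held TGATGNAA.

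The 7 cytosolic synthetases with TGATGNAA in a promoter had median log2 ratios of 0.04 for ESRP2 against control siRNA, 0.20 for Arkadia against control siRNA and -0.03 between the knockdowns. For the 9 cytosolic genes whose matched promoters lacked it, the medians were 0.26, 0.22 and -0.10. With GC medians subtracted, they were 0.03, 0.31 and 0.29 for the genes with TGATGNAA, and 0.07, 0.17 and 0.05 for those without. The difference between these groups was not tested. Genes with these letters did not move as 1 group: with ESRP2 siRNA they ranged from AARS at -0.43 to IARS at 0.83. With GC medians subtracted, that range was from GARS at -0.43 to IARS at 0.41. MARS, the methionine enzyme, was at 115, 109 and 157 FPKM with control, ESRP2 and Arkadia siRNA. NARS, the asparagine enzyme, was at 54.6, 72.3 and 50.1 FPKM. MARS was highest with Arkadia siRNA and NARS with ESRP2 siRNA.

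ATF4 itself was at 803, 569 and 887 FPKM with control, ESRP2 and Arkadia siRNA, and the asparagine synthetase gene ASNS at 95.8, 85.0 and 80.0 FPKM. These 2 genes were singled out after their values were seen. An amino acid response list, which includes ATF4 itself and the kinase genes EIF2AK3 and EIF2AK4, had 30 compared genes. Of these, 2 were higher and 11 lower with ESRP2 siRNA than with control siRNA, beside 20.0% and 11.6% of all genes. With Arkadia siRNA 2 were higher and 3 lower, beside 10.0% and 11.9%. Between the knockdowns 12 were higher and 4 lower, beside 21.4% and 30.8%. The stress gene DDIT4 was at 67.4, 25.8 and 62.2 FPKM, PHGDH, which opens serine synthesis, at 192, 119 and 319, and CEBPB at 8.68, 3.20 and 12.0, with intervals apart between the knockdowns. ATF5 was at 8.29, 2.71 and 5.16 FPKM, from an interval that reached 0 in every library. The median log2 ratios of the list were -0.31, 0.09 and 0.49, and -0.28, -0.04 and 0.16 with GC medians subtracted. For the cytosolic synthetases the median with ESRP2 siRNA was 0.20, and 0.06 with GC medians subtracted. The difference between these lists was not tested.

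Within the cytosol, 8 synthetases belong to the multi-synthetase complex: EPRS, IARS, LARS, QARS, MARS, KARS, RARS and DARS. This grouping was added after values were known. With ESRP2 siRNA 7 of the 8 were above 0, beside 7 of the 12 other cytosolic genes and 57.7% of all genes. The median log2 ratio was 0.28, beside 0.10 for these other cytosolic genes and 0.12 over all genes. With Arkadia siRNA the medians were 0.18 and 0.21, and between the knockdowns -0.17 and 0.23. The genes of the complex had a median GC content of 43.4% and the others 52.7%. With GC medians subtracted, the medians of the complex were 0.04, 0.23 and 0.21, and those of the others 0.09, 0.16 and 0.02. QARS was at 150, 181 and 195 FPKM and KARS at 138, 166 and 153 FPKM, both lowest with control siRNA. EPRS was also lowest there, at 76.9, 103 and 95.9 FPKM, while LARS was at 55.5, 67.7 and 48.0 FPKM.

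The scaffold proteins of that complex are AIMP1, AIMP2 and EEF1E1, of which the first pair was singled out after values were seen. AIMP1 was at 30.0, 40.1 and 22.7 FPKM with control, ESRP2 and Arkadia siRNA, EEF1E1 at 67.7, 90.8 and 42.4, and AIMP2 at 66.0, 40.6 and 55.9. AIMP1 and EEF1E1 were highest with ESRP2 siRNA and AIMP2 with control siRNA. XPOT, which exports tRNA from the nucleus, was at 53.1, 79.7 and 39.1 FPKM, and the elongation subunit EEF1D at 274, 231 and 412. EEF1A1, which brings charged tRNA to the ribosome, was at 2357, 4109 and 2795 FPKM, with intervals apart between ESRP2 and control siRNA. Its value with ESRP2 siRNA lay outside its own interval of 3858 to 3906, and it has near-identical copies in the genome, so it is uncertain. Of the 8 compared genes on this list of partners, 1 was higher and 1 lower with ESRP2 siRNA, 0 and 1 with Arkadia siRNA, and 1 and 3 between the knockdowns. The shares of all genes were 20.0% and 11.6%, 10.0% and 11.9%, and 21.4% and 30.8%, and at 8 genes nothing is read from these counts.

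For each of 17 pairs that serve the same amino acid, the cytosolic gene had the higher level in all 3 libraries. The median ratio of cytosolic to mitochondrial FPKM was 3.76 with control siRNA, 3.81 with ESRP2 siRNA and 5.12 with Arkadia siRNA. Intervals lay apart in 11, 12 and 13 of the 17 pairs. The pairs share EPRS and FARS2, each counted for 2 of them. LARS and LARS2, the leucine enzymes, were nearly level, with ratios of 1.15, 1.82 and 1.0 in the 3 libraries. LARS2 was at 48.2, 37.2 and 47.9 FPKM. FARSA and FARS2 had ratios of 13.98, 11.2 and 17.9, the largest with control and Arkadia siRNA, while SARS and SARS2 had the largest with ESRP2 siRNA, at 13.1. IARS and IARS2 had ratios of 1.5, 1.81 and 1.84, and overlapping intervals throughout.

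Pairs differed in how far this ratio varied between libraries. In the order of control, ESRP2 and Arkadia siRNA, the ratio of HARS to HARS2 was 3.15, 2.35 and 4.98, that of MARS to MARS2 was 9.92, 6.15 and 13.3, and that of SARS to SARS2 was 8.23, 13.1 and 6.73. The RARS and RARS2 ratio was 3.76, 3.74 and 3.92, so that of the arginine enzymes varied little. The WARS and WARS2 ratio, for tryptophan, was 4.82, 4.78 and 4.71. Transcript GC content was 54.4% and 49.9% for HARS and HARS2, and 53.7% and 48.4% for MARS and MARS2. For SARS and SARS2 it was 52.5% and 61.9%. The steadier pairs had 41.4% and 41.9% (RARS and RARS2) and 49.5% and 42.4% (WARS and WARS2). How far the spread of these ratios goes with GC content was not tested. The cytosolic log2 ratio exceeded its mitochondrial partner's in 10 of 17 pairs for ESRP2 against control siRNA, 9 for Arkadia against control siRNA and 10 between the knockdowns. The median differences were 0.06, 0.05 and 0.02, all close to 0.

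**Figure D4:**
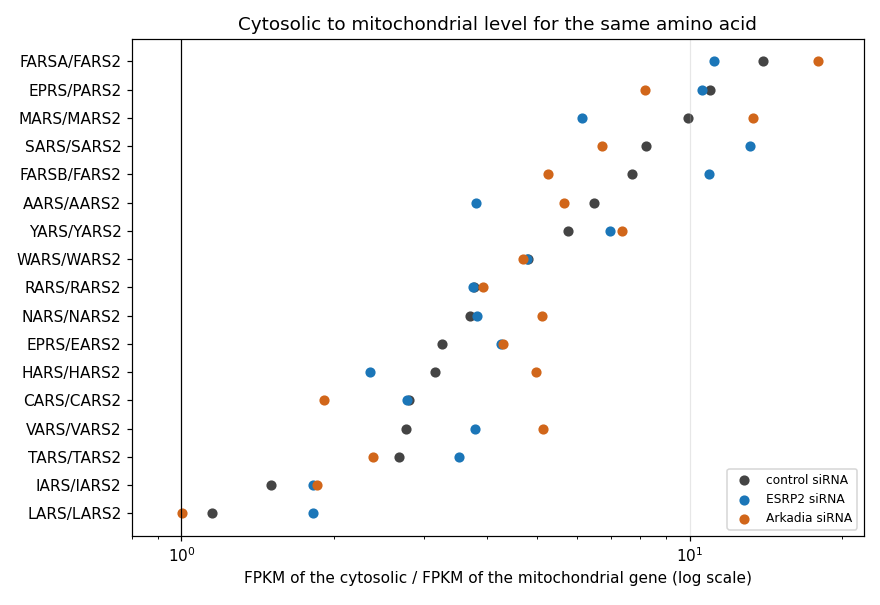
Ratio of cytosolic to mitochondrial FPKM (log scale) for 17 pairs that serve the same amino acid, ordered by the control library; each point is 1 library. All points lie at or above 1, LARS/LARS2 lies nearest to it at 1.0 to 1.82, and HARS/HARS2, MARS/MARS2 and SARS/SARS2 spread widely between libraries.

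Isoforms were compared for the 11 synthetases with 2 or more listed isoforms, while 25 had 1. Of the 11, VARS and SARS2 had only 1 isoform above 0 FPKM, so their usage change could only be 0. The usage change is the share of summed FPKM that moved between a gene's isoforms, and 0.25 was taken as its size. With ESRP2 against control siRNA 2 of 11 genes passed it, VARS2 and NARS2, beside 20.0% of 3455 genes. With Arkadia against control siRNA none did, beside 17.1%, and EARS2 had the largest value, 0.21. Between the knockdowns VARS2, NARS2 and EARS2 passed, beside 26.3% of genes. These shares of members lie near or under those of all genes, and nothing is read from them.

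In NARS2 (chr11:78147007-78285909 on hg19) the shorter isoform NM_001243251, of 2038 nt, was at 2.89 FPKM with control siRNA, 14.3 with ESRP2 siRNA and 1.13 with Arkadia siRNA. The longer NM_024678, of 2519 nt, was at 11.9, 4.66 and 8.67 FPKM. The shorter form thus made up 19.5%, 75.5% and 11.5% of the gene, and the usage changes were 0.56 against control siRNA and 0.64 between the knockdowns. Its intervals lay apart only between the knockdowns, and rested on a gene level of 9.80 to 19.0 FPKM.

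VARS2 (chr6:30881982-30894235 on hg19) was read almost wholly as NM_001167734 in 2 libraries and mostly as another isoform with ESRP2 siRNA. NM_001167734, of 3611 nt, was at 16.9, 0.18 and 12.5 FPKM with control, ESRP2 and Arkadia siRNA. NM_020442, of 3607 nt, was at 0.0079, 7.33 and 0.16 FPKM, and the remaining form, of 3379 nt, was at 1.98 FPKM with ESRP2 siRNA and at 0 in the other libraries. The share of NM_001167734 was 99.95%, 1.93% and 98.7%. Intervals of both main forms lay apart between ESRP2 siRNA and each other library. These forms differ little in length and are assigned to different start groups in the deposited table. The gene also lies in a region with alternative haplotype copies in the build, which were listed at 0. How far the authors' estimation can tell such forms apart was not tested.

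EARS2, the glutamate enzyme of mitochondria, had a coding form NM_001083614 at 14.3, 19.8 and 8.70 FPKM and a non-coding form NR_003501 at 9.37, 4.31 and 13.6 FPKM. The non-coding share was 39.6%, 17.9% and 61.1%, with overlapping intervals throughout. In KARS, NM_001130089, which encodes the mitochondrial lysine enzyme, held 10.4%, 4.81% and 11.8% of the gene. NM_005548, the cytosolic form, held the rest and was the main form in each library. NM_001130089 was at 14.3, 7.97 and 18.1 FPKM. Its intervals overlapped, and they reached down to 0 with control and ESRP2 siRNA and to 0.042 with Arkadia siRNA. In IARS the form NM_013417 held 24.96%, 7.45% and 16.0%. The non-coding CARS form NR_036542 held 23.0%, 7.18% and 11.0%. In WARS2 the form NM_201263 held 9.19%, 20.1% and 6.49%, and in WARS the form NM_173701 held 60.0%, 58.0% and 64.9%. Of these, none reached 0.25 in any comparison other than EARS2.

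**Figure D5:**
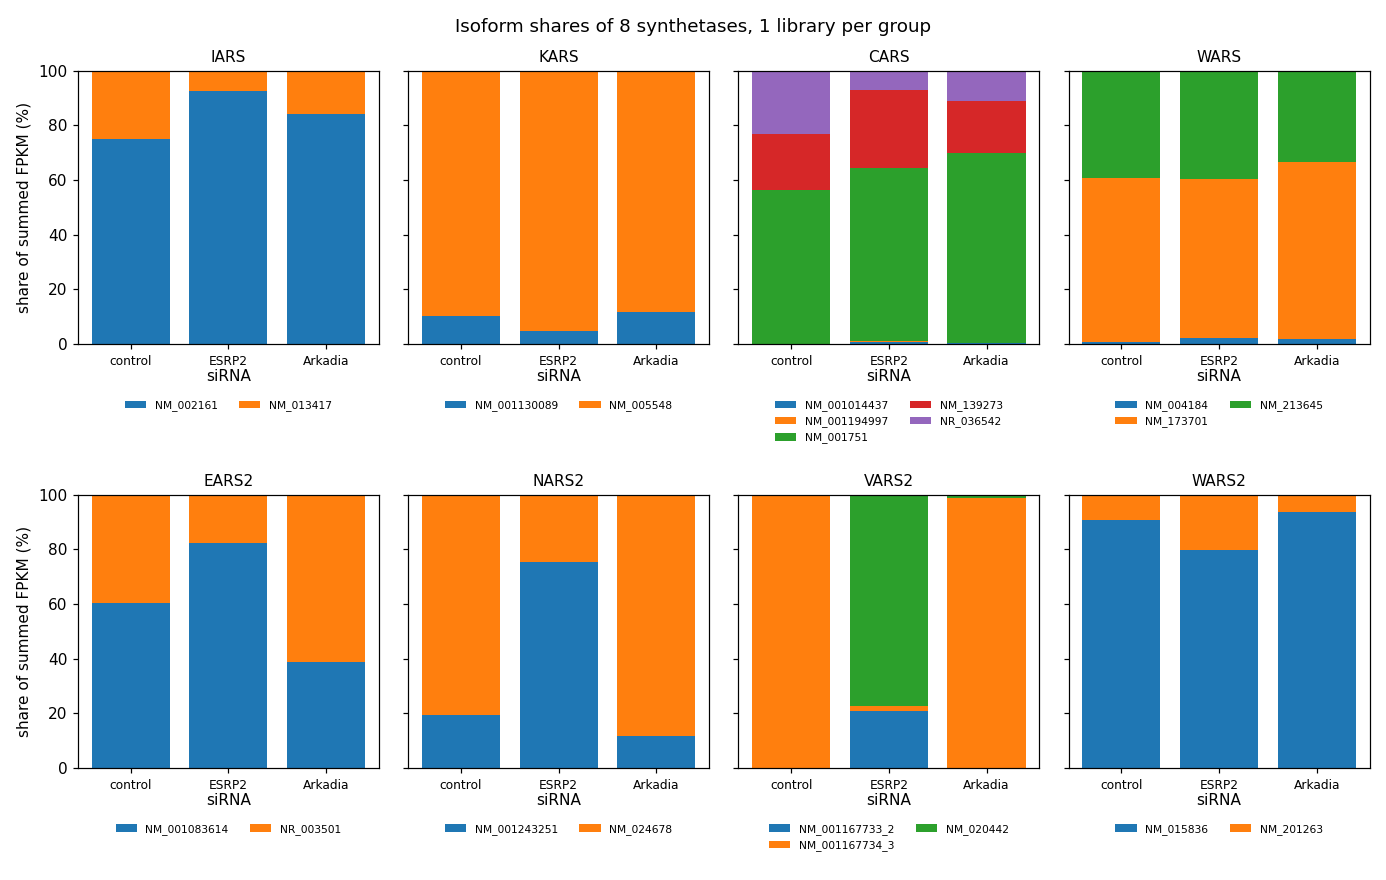
Share of each listed RefSeq isoform in a gene's summed FPKM (%) for 8 synthetases; the bars are the control, ESRP2 and Arkadia siRNA libraries. In VARS2 and NARS2 the ESRP2 siRNA bar differs from both others, with 75.5% of NARS2 in its shorter form. The usage changes of KARS and WARS were at most 0.07.

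Other genes of mitochondrial translation were mostly above their control level with ESRP2 siRNA. Of their ratios 15 of 16 were above 0, beside 57.7% of all genes. Of these 16 partners, which include elongation factors and the amidation subunits, 7 were higher than with control siRNA and 0 lower, beside 20.0% and 11.6% of all genes. With Arkadia siRNA 1 was higher and 2 were lower, beside 10.0% and 11.9%, and between the knockdowns 0 were higher and 8 lower, beside 21.4% and 30.8%. QRSL1 and GATC, subunits of the amidase that makes mitochondrial glutaminyl-tRNA, were at 14, 34.8 and 16.8 and at 27.1, 43.7 and 16.1 FPKM with control, ESRP2 and Arkadia siRNA. TSFM, the exchange factor of mitochondrial elongation, was at 50.4, 98.8 and 59.7 FPKM, and MTFMT, which formylates the initiator tRNA, at 7.99, 13.9 and 6.82. These 4 genes had overlapping intervals. The list had a median GC content of 43.3%, and its median log2 ratios of 0.45, 0.04 and -0.62 came to 0.22, 0.19 and -0.06 with GC medians subtracted. The mitochondrial synthetases, with a median GC content of 51.7%, had 0.10, 0.01 and 0.20, and 0.09, 0.06 and -0.0037 after subtraction.

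WARS, the tryptophan enzyme and an interferon-inducible gene, was at 81.6, 90.9 and 67.3 FPKM with control, ESRP2 and Arkadia siRNA. Of 14 interferon genes only 6 passed the level filter. Of these, 1 was lower with ESRP2 than with control siRNA, ISG15 (7.48 to 4.16 FPKM), and 1 was lower with Arkadia than with ESRP2 siRNA. Among all genes 11.6% and 30.8% were lower in these comparisons. None was past the size between Arkadia and control siRNA.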

How the data were processed

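Polyadenylated RNA of 3 HEK293T libraries was measured, 1 per siRNA, so no value has an error from replicates. FPKM values, their confidence bounds and a status per gene and isoform were deposited by the authors, made on hg19 with Cuffdiff, Cufflinks 2.1.1, Bowtie2 2.1.0 and TopHat2 2.0.10, per the submitters' processing notes. The sources used here do not give the scaling, the use of strand or the Cuffdiff version.

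Here log2((FPKM + 1)/(FPKM + 1)) was computed with Python 3.11.15, pandas 2.3.3 and numpy 2.4.6, a scale that understates changes of low genes. A mean FPKM of at least 1 and status OK in each library were required, which left 11975 genes and all 36 synthetases. A gene counts as higher or lower past 1.5-fold. Isoform usage change adds the absolute changes of an isoform's share over all isoforms and divides by 2; it was computed for genes whose isoforms summed to 5 FPKM or more in every library. Reads are estimates from the FPKM of 1 read, which made 92.9%, 92.9% and 94.5% of genes with up to 4 reads whole within 0.1. GC content came from GENCODE 29 transcripts, matched for 99.0% of genes and all 36 synthetases, and medians of 10 GC groups were subtracted as an alternative. The calculation was tested on simulated data.

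By rule, values in detail are given for the 5 largest log2 ratios per set and comparison, the 4 highest and 4 lowest levels per set, the pairs and isoforms past 0.25 or among the 6 largest. From related lists up to 4 genes with the largest ratios are named. The members and lists were chosen with earlier results of these data known. Alternatives were the pseudocount, the filter, 2 other scalings, the isoform table, GC and, added after the data were seen, length. Protein sequences were not used here, and results for some single genes of the related lists are not reported.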

Additional observations from a re-analysis of the deposited data

How the results depend on the processing

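Set medians and counts kept their value within 0.1 (log2) or 1.5 times with a pseudocount of 0.1, no filter, a mean FPKM of at least 5 and summed isoforms, although MARS2 (0.60, ESRP2 against control siRNA) and NARS2 (-0.59, Arkadia against control siRNA) then passed the size with the pseudocount of 0.1. With median-of-ratios scaling the median log2 ratios for ESRP2 against control siRNA were 0.0785 (cytosolic) and -0.0173 (mitochondrial), and between the knockdowns 0.0892 and 0.35. With upper-quartile scaling they were 0.0321 and -0.0615, with 3 cytosolic genes past the size, and 0.0939 and 0.35. Among all genes, those scalings gave 1757 higher and 1869 lower, and 1561 and 2085, for ESRP2 against control siRNA in place of 2393 and 1393. Between the knockdowns they gave 3143 and 3030, and 3162 and 3015, in place of 2561 and 3689.

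With GC medians subtracted, the cytosolic median was 0.0591 for ESRP2 against control siRNA, with 0 genes past the size, and 0.0568 between the knockdowns, with 3. The mitochondrial set had 1 gene past the size in each comparison and a median of -0.0037 between the knockdowns. IARS (0.0084) and RARS (0.0593) reversed between the knockdowns. The cause was not tested. With length medians subtracted, an alternative added after the data were seen, the cytosolic medians were 0.10 for ESRP2 against control siRNA and 0.0539 between the knockdowns, and the mitochondrial genes past the size there were 4 higher and 3 lower in place of 1 and 4. With a summed FPKM of at least 10, 0 synthetases passed the isoform size for ESRP2 against control siRNA, since NARS2 and VARS2 were no longer entered. No paired analysis was possible because each group has 1 library. No replicate could be left out for the same reason. At these depths and interval widths no synthetase had gene-level intervals apart in any comparison.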

Other observations

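Enzymes that act on tRNA before or after charging were compared beside the synthetases. TRNT1, which adds the CCA end that every synthetase needs, was at 4.29 FPKM with control siRNA, 14.7 with ESRP2 siRNA and 4.45 with Arkadia siRNA. Its interval with ESRP2 siRNA (7.45 to 21.9) lay apart from both others (1.99 to 6.56 and 2.07 to 6.82), where 1.27% of all genes had intervals apart between ESRP2 and control siRNA and 6.31% between the knockdowns. The transcript has a GC content of 37.5%. C14orf126, a D-tyrosyl-tRNA deacylase, was at 5.18, 11.2 and 4.89 FPKM, and SEPSECS, which completes selenocysteinyl-tRNA, at 1.43, 2.44 and 0.85 FPKM. Of the 9 compared genes of this list, 2 were higher and 1 lower with ESRP2 siRNA than with control siRNA, 1 was higher with Arkadia siRNA, and 2 were higher and 4 lower between the knockdowns. The shares of all genes higher and lower were 20.0% and 11.6%, 10.0% and 11.9%, and 21.4% and 30.8% in these comparisons.

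Of 78 mitochondrial ribosomal protein genes, 17 were higher and 11 lower with ESRP2 siRNA, 20 higher and 9 lower with Arkadia siRNA, and 20 higher and 24 lower between the knockdowns. As shares these were 21.8% and 14.1%, 25.6% and 11.5%, and 25.6% and 30.8%, to be read beside the shares of all genes just given. Their median log2 ratios were 0.26, 0.13 and -0.06, beside 0.12, -0.02 and -0.13 over all genes.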
